A study of Arabidopsis thaliana with 33 samples.

Results

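FAIRE-only sites were defined here as 5184 regions of the Arabidopsis thaliana genome that were in the FAIRE-seq peak list of unstressed seedlings, again in the FAIRE-seq list of each of 4 stresses, and in none of 5 DNase-seq lists. They were 7.12% of the 72789 peaks of the control FAIRE-seq list on chromosomes 1 to 5. A site had to share at least 1 base with a peak of the heat, cold, salt and drought FAIRE-seq lists, and no base with any peak of the control, heat, cold, salt or drought DNase-seq list. The sites were chosen by the presence and absence of peaks in the 10 lists, so their number, width and strength are given as a description, without a test.

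FAIRE and DNase-seq are both used to map open chromatin, but they read different properties of it. In FAIRE, chromatin is crosslinked with formaldehyde and sheared, and DNA that carries little crosslinked protein, chiefly nucleosome-depleted DNA, stays in the aqueous phase of a phenol-chloroform extraction. In DNase-seq, nuclei are treated with DNase I and the sequenced fragments mark where the enzyme cut. In plants, open chromatin of both kinds is known to gather at promoters and gene ends.

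All material was 10 day old seedlings of the accession Columbia-0, grown on plates with sucrose. Control seedlings were unstressed. Heat was 38 °C for 6 h, cold was 4 °C for 24 h, salt was 250 mM NaCl for 6 h, and drought was 1 h of drying in air. Each assay and condition had 3 libraries, or 2 for cold, but 1 peak list that the labels tie to the whole group. There is therefore no replicate error, the read depth behind the lists is unknown, and seedlings mix all organs and cell types. The FAIRE-seq lists held 63060 (cold) to 92034 (drought) peaks and the DNase-seq lists 45737 (drought) to 70807 (control). Differences between the lists in depth and in what passed the peak caller cannot be told apart from differences in the chromatin.

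Of the 72789 control FAIRE-seq peaks, 48174 (66.2%) were stable, meaning that every stress FAIRE-seq list held them, and 15617 (21.5%) were in no DNase-seq list. Among the stable peaks 10.8% were in no DNase-seq list, against 10433 of 24615 (42.4%) among peaks that at least 1 stress FAIRE-seq list lacked. Most stable peaks had support from DNase-seq: 22344 were in all 5 DNase-seq lists and 20646 in 1 to 4 of them. These 2 classes serve as the comparison below.

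**Figure D1:**
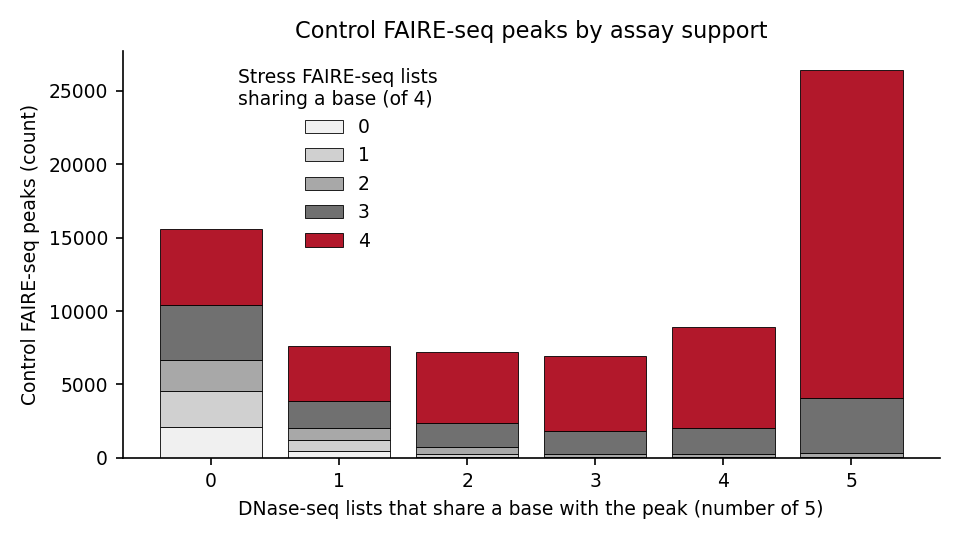
Control FAIRE-seq peaks (count, vertical axis) by the number of DNase-seq lists that share a base with them (horizontal axis), with colours for the number of stress FAIRE-seq lists that do. The red block over 0 is the 5184 FAIRE-only sites, and the red block over 5 is the 22344 stable peaks of all 5 DNase-seq lists.

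Absence from DNase-seq rested on some lists more than on others. The cold DNase-seq list held 79.0% of the stable peaks, the control list 76.0%, the heat list 73.7%, the salt list 66.7% and the drought list 53.9%. The heat list alone accounted for 1954 stable peaks that no other DNase-seq list held, against 835 for cold, 645 for control, 244 for salt and 65 for drought. A rule without the heat DNase-seq list would thus have given 7138 sites. One without the cold FAIRE-seq list, the shortest of the FAIRE-seq lists, would have given 7887.

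Many FAIRE-only sites lay beside a DNase-seq peak. The distance to the nearest peak of any DNase-seq list had a median of 350 bp, and 90% of sites lay between 27 and 1845 bp. Of the sites, 31.8% were within 200 bp of a DNase-seq peak, 84.0% were within 1000 bp, and the most remote was 22063 bp away. The same shares were not computed for other positions of the genome, so whether the sites lay nearer than those is not known. In single lists, the median distance was 453 bp for control, 595 bp for cold, 599 bp for salt, 819 bp for heat and 999 bp for drought. The label of sites never seen by DNase-seq therefore holds for the peak intervals themselves, and not for their surroundings.

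At the edge of the rule, 111 sites came within 10 bases of a DNase-seq peak, and 78 stable peaks were left out because they shared at most 10 bases with a single DNase-seq list. A 137 bp site inside AT1G23110 (1:8197439-8197575), a 235 bp site nearest to AT2G07110 (2:2944196-2944430) and a 539 bp site inside SPPL3 (2:17912110-17912648) touched a DNase-seq peak with 0 bases between. Just outside the rule, peaks near CYP94D1 (1:12638796-12638988) and PCNA2 (2:12651686-12651845) and inside AT3G24040 (3:8681435-8681560) shared 1 base with a heat DNase-seq peak. Values on both sides of the edge overlapped: control fold enrichment was 1.73, 2.67 and 2.31 for the sites inside and 2.96, 2.93 and 1.84 for the peaks outside.

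FAIRE-only sites were narrow. Their median width in the control list was 169 bp, with 90% between 108 and 347 bp, against 213 bp for stable peaks of 1 to 4 DNase-seq lists and 290 bp for those of all 5. FAIRE-only sites made up 23.2% of stable peaks 100 to 129 bp wide and 2.43% of those of 320 bp or more. Width bears on the rule directly, since a wider peak offers more bases that a DNase-seq peak can share.

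They were of middling strength. Fold enrichment, the authors' own value per peak from the peak caller, had a median of 2.12 in the control list and ran from 1.40 to 4.66. It was 2.23 for stable peaks of 1 to 4 DNase-seq lists and 2.38 for those of all 5. Ranked within each FAIRE-seq list by the share of its peaks with lower fold enrichment, the FAIRE-only sites had median ranks of 45.3% in control, 53.1% in heat, 46.4% in cold, 52.4% in salt and 53.8% in drought. Stable peaks of all 5 DNase-seq lists ranked higher in each list, with medians from 63.4% in cold to 82.7% in salt.

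**Figure D2:**
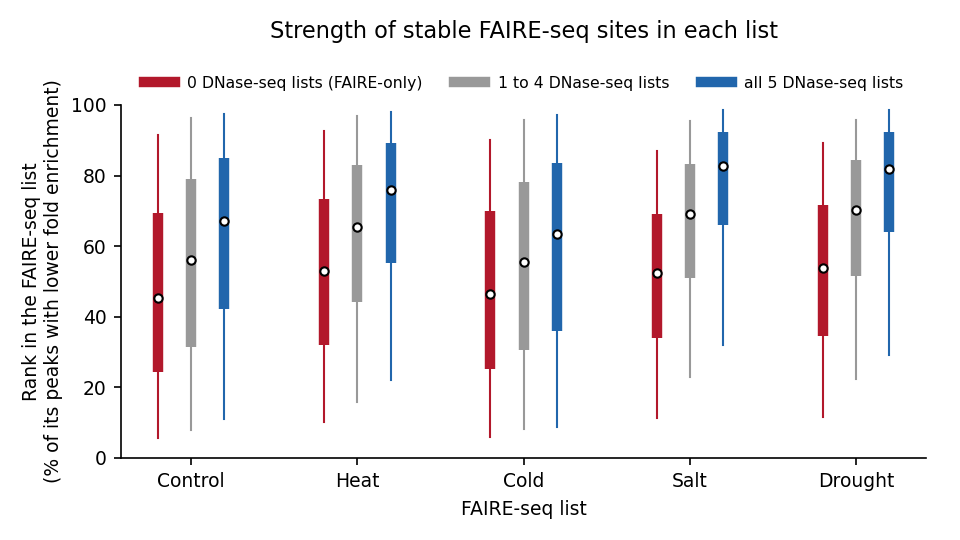
Rank of stable sites (%, vertical axis) in each of the 5 FAIRE-seq lists (horizontal axis), by the number of DNase-seq lists that hold them; points are medians, thick bars the middle 50% of sites and thin bars 90%. FAIRE-only sites have the lowest median in each list, 45.3% in control, and their bars overlap those of the other classes.

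A minority was strong throughout. Of the 5184 sites, 1140 (22%) ranked at 50% or above in all 5 FAIRE-seq lists, 285 (5.50%) at 75% or above and 41 (0.791%) at 90% or above. In the control list alone 342 sites were in the top 10%. The median distance between the control summit and the summit of the overlapping stress peak was 21 bp in heat and 23 bp in cold. The 95th percentile was 149 bp in cold, 209 bp in heat and 268 bp in salt, so at some sites the stress summit lay further off than the width of a typical site. The median share of a control site covered by the stress list ran from 80.8% in cold to 95.1% in heat.

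FAIRE-only sites lay within genes less often than other stable sites. A summit was within a protein-coding gene at 3056 sites (59.0%, 95% Wilson interval 57.6 to 60.3%), up to 1000 bp outside one at 823 (15.9%, 14.9 to 16.9%) and elsewhere at 1305 (25.2%, 24.0 to 26.4%). The share within genes was 65.1% for stable peaks of 1 to 4 DNase-seq lists and 77.7% for those of all 5. The share up to 1000 bp outside a gene was 16.3% and 8.24% in the same order. Genes covered 54.1% of the bases of the 5 chromosomes, and these flanks 20.4%. Control FAIRE-seq peaks that were in no DNase-seq list and were not stable were at 53.8% within genes and 24.8% in flanks. Compared with stable peaks of all 5 lists, the share of FAIRE-only sites within genes was lower on 5 of 5 chromosomes. It was also lower in 5 of 5 classes of width and in 5 of 5 classes of rank. Against peaks of 1 to 4 lists it was lower on 5 of 5 chromosomes and in 5 of 5 classes of rank. By width it was lower in 4 of 5 classes, and at 230 to 319 bp it was 62.6%, against 61.6%. The peaks of all 5 lists were also weighted to the widths and ranks of the FAIRE-only sites, an alternative chosen after seeing the data. Their share within genes was then 80.2%, and that of peaks of 1 to 4 lists, weighted likewise, 68.1%. Intervals here and below cover counting error only, since neighbouring peaks are not independent and there is 1 list per group.

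The place changed with strength. Among FAIRE-only sites ranked below 25% in the control list, 75% (72.7 to 77.3%) were within genes and 4.29% in the flanks up to 1000 bp outside. Among the top 10%, 20.2% (16.3 to 24.7%) were within genes and 48.0% in the flanks. Stable peaks of all 5 DNase-seq lists went from 79.4% within genes below rank 25% to 63.5% in the top 10%, so the classes lay close together among weak peaks and far apart among strong ones. Stable peaks of 1 to 4 lists were at 79.3% and 27.4% within genes, and 49.5% of their top 10% were in the flanks.

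**Figure D3:**
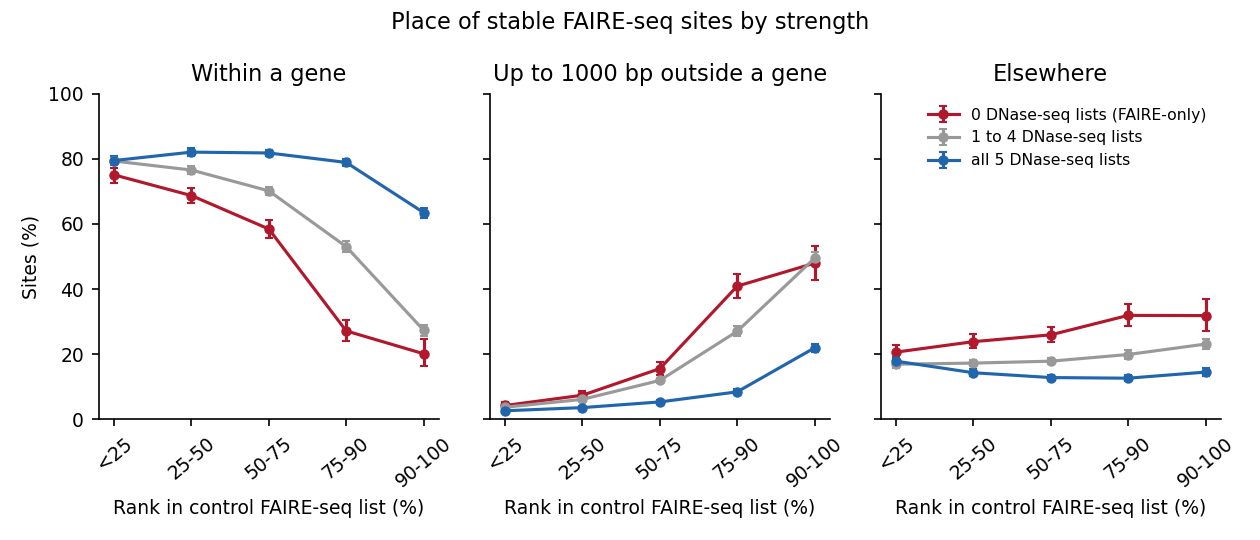
Share of stable sites (%, vertical axes) within a protein-coding gene, up to 1000 bp outside one and elsewhere, by rank in the control FAIRE-seq list (%, horizontal axes) and by the number of DNase-seq lists that hold them; bars are 95% Wilson intervals. The FAIRE-only curve for genes falls from 75% to 20.2%, while that of stable peaks of all 5 DNase-seq lists ends at 63.5%.

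Taken over all ranks, FAIRE-only sites inside genes sat deeper than stable sites of all 5 DNase-seq lists. Their median distance to the nearer gene end was 959 bp, against 490 bp, in genes with a median length of 3197 bp, against 2457 bp. As a share of the length of the gene, the median distance was 31.1%, against 22.9%. In the top 10% of the control list the order was reversed. The 69 FAIRE-only sites inside genes there had a median distance of 142 bp (9.06% of the gene), against 393 bp (20.2%). Stable peaks held by some, but not all 5, DNase-seq lists were reversed likewise against those of all 5. Their median distance inside genes was 697 bp (26.8%) over all ranks and 168 bp (7.65%) in the top 10%. The reversal was thus not particular to FAIRE-only sites. The gene table gives no strand, so gene starts and gene ends could not be separated.

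Weak and strong FAIRE-only sites had different profiles around gene ends. For sites in the lower 50% of the control list, the fullest bin of 100 bp lay 800 to 900 bp inside a gene end and held 5.55% of them. For the top 10%, it lay 0 to 100 bp outside the end and held 12.9%. The strong peaks of 1 to 4 DNase-seq lists had the same fullest bin, with 12.7%, and those of all 5 had theirs 0 to 100 bp inside, with 10.6%. Stable peaks of all 5 DNase-seq lists in the lower 50% had their fullest bin at 400 to 500 bp inside, with 11.2%. Weak peaks of 1 to 4 lists had theirs at 300 to 400 bp inside, with 5.94%. They held 5.69% at 800 to 900 bp inside, so that bin was not particular to FAIRE-only sites. The profile of weak FAIRE-only sites was broad, and those inside genes had a median distance of 1035 bp to the nearer end. The top 10% of FAIRE-only sites outside genes had a median distance of 733 bp to the nearest gene end, in intergenic spacers with a median length of 3591 bp.

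**Figure D4:**
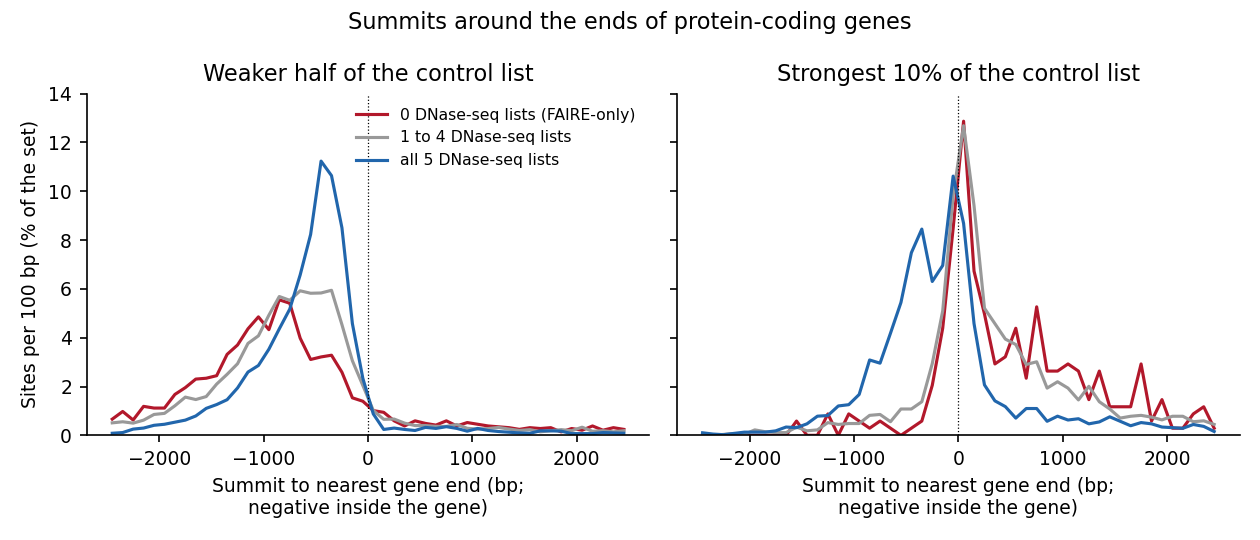
Distribution of summits (% of each class per 100 bp, vertical axes) around the nearest end of a protein-coding gene (bp, horizontal axes; negative inside the gene), for the weaker 50% and the strongest 10% of the control FAIRE-seq list. Weak FAIRE-only sites centre 800 to 900 bp inside genes, and strong ones peak 0 to 100 bp outside, at 12.9%.

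Long genes carried more FAIRE-only sites, also per length. Of genes up to 1000 bp long, 2.26% held a site, and of genes over 5000 bp, 30.3%; per Mb of gene sequence the density was 35.7 sites in the former and 56.4 in the latter. By density, stable peaks of all 5 DNase-seq lists went the other way, with 409 and 134 per Mb. The share of genes that held such a peak rose with length, from 25.6% to 57.2%. For stable peaks held by some, but not all 5, DNase-seq lists this share rose from 13.1% to 67.0%. Their density was 212 per Mb in genes up to 1000 bp, 227 in genes of 2000 to 3000 bp and 176 in genes over 5000 bp. In all 2727 of 27444 protein-coding genes (9.94%) held at least 1 FAIRE-only site. Most of these genes did have DNase-seq peaks: 64.1% contained a peak of each of the 5 DNase-seq lists, and 211 genes (7.74%) contained none, against 68.4% and 7.81% over all protein-coding genes. Genes with a site were longer, with a median of 3103 bp, against 2078 bp over all. Among genes over 3000 bp, 78.0% of those with a site contained a peak of each list and 0.981% none. Over all genes of that length the shares were 82.0% and 1.74%.

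Of the other annotated gene types, pseudogenes held the most sites. They held 573 FAIRE-only sites (11.1%, 10.2 to 11.9%), against 8.63% of stable peaks of 1 to 4 DNase-seq lists and 8.70% of those of all 5. Long noncoding RNA genes held 1.43%, against 2.27% of stable peaks of 1 to 4 lists and 2.55% of those of all 5. Transfer RNA genes held 3 sites (0.0579%, 0.0197 to 0.170%), against 0.344% of stable peaks of 1 to 4 lists. The share was 0.175% (0.128 to 0.239%) for those of all 5 lists, and this interval overlaps that of the FAIRE-only sites. For sites that lay elsewhere, pseudogenes were counted differently, since 585 FAIRE-only sites were then in one, more than the 573 above. These were 11.3% of all FAIRE-only sites, against 8.97% of stable peaks of 1 to 4 lists and 8.63% of those of all 5. By the same count, but over only those sites that lay elsewhere, the order was the other way: 44.8% of FAIRE-only sites were in a pseudogene, against 48.3% and 61.5%. Among the top 10% of sites elsewhere the shares were 8.26%, against 10.3% and 34.9%.

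Of 326 microRNA genes, whose transcripts are processed into short regulators of other messages, 4 held a FAIRE-only site. That was 0.0772% of the sites (0.0300 to 0.198%), against 0.0581% of stable peaks of 1 to 4 DNase-seq lists and 0.0134% (0.00457 to 0.0395%) of those of all 5. MIR395f, of a family known for the response to sulfate starvation, had control, heat, cold, salt and drought fold enrichments of 2.12, 2.26, 2.24, 2.37 and 2.15 (1:26273835-26273991). MIR2111a, of a family known for phosphate starvation, had 2.02, 1.91, 2.06, 2.24 and 2.22 (3:2854287-2854435). MIR395f equalled the median of the FAIRE-only sites in the control list, and MIR2111a was below it. MIR833a and MIR5638a were at 1.80 and 1.99 in control. The gene of U6acat, a small RNA of the minor spliceosome, held the single site in an snRNA gene, at 2.53 in control.

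The sites were spread over the genome. FAIRE-only sites were 10.6% to 11.0% of stable peaks on each of the 5 chromosomes. In windows of 500 kb with under 25% gene sequence, they were 15% of stable peaks and numbered 50.5 per Mb. In windows with 25 to 50% they were 11.6% and 36.8 per Mb, and in windows with 50% or more 10.0% and 43.0 per Mb. Stable peaks of all 5 DNase-seq lists numbered 141, 134 and 204 per Mb in the same order. The median distance between neighbouring FAIRE-only summits was 14919 bp, and 353 neighbouring pairs were within 1000 bp.

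The strongest sites were picked as the 10 with the highest control fold enrichment and the 10 whose lowest rank over the 5 FAIRE-seq lists was highest, which gave 15 sites. None of the 15 was within a protein-coding gene: 9 were in flanks and 6 further out. Their widths ran from 161 to 219 bp, and 12 of them ranked at 90% or above in all 5 lists.

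The highest value was at AT3G11590, in a 219 bp site 32 bp outside the gene (3:3660161-3660379). Control, heat, cold, salt and drought fold enrichments there were 4.66, 4.67, 5.30, 4.19 and 3.77. This site ranked at 97.0% or above in each list, yet a DNase-seq peak began 13 bp away. The next, with 4.56, 4.43, 4.30, 3.48 and 3.25, lay in the spacer between TDR1 and ERF1, neighbouring genes for ethylene response factors, 2639 bp from the nearer one (3:8292704-8292896). Its nearest DNase-seq peak was 2502 bp away, the largest gap of the 15.

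The site whose lowest rank was highest was in the spacer beside AT4G18660 (4:10271699-10271859), at 4.40, 4.02, 4.83, 4.94 and 3.70. Its rank was 98.0% or higher in all 5 lists. KAN3, a transcription factor of the KANADI family that sets leaf polarity, had a site 106 bp outside (4:9847734-9847925) at 3.98, 4.55, 4.71, 4.26 and 3.75. PLL4, a phosphatase of the POLTERGEIST family, had one 1229 bp away (2:12409379-12409549) at 4.37, 4.17, 4.89, 4.13 and 3.52. Each of these stayed above rank 96% in every FAIRE-seq list.

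Other strong sites differed in how even their ranks were. The site 1018 bp from MCA1, a calcium channel component of mechanosensing (4:17016426-17016596), ranked at 98.7% in control, 96.2% in heat, 97.5% in cold and 97.3% in salt, and at 62.6% in drought. That of AT1G27120 (1:9420407-9420577) ranked at 98.6% in control and 69.2% in drought. The site 727 bp outside NAC047, a NAC transcription factor (3:1063880-1064064), ranked at 94.9% or above in all 5. The spacer between XRCC2, a DNA repair gene, and XND1, a NAC factor of xylem differentiation, held a site (5:25792514-25792715) that ranked at 95.3% or above. Ranks are set within lists of different length and show no change between conditions.

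Counting sites within the gene or up to 1000 bp outside, 3885 genes had 1 site, 439 had 2, 60 had 3, 5 had 4 and 1 had 6. The 1 gene with 6 was ATM, the kinase that signals DNA double-strand breaks, a gene of 27265 bp. All 6 lay within it, spread from 17803959 to 17826251 on chromosome 3, with control fold enrichments between 1.83 and 2.47.

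For the 6 sites of ATM, from the lowest coordinate to the highest, control values were 2.39, 1.86, 2.47, 2.19, 2.34 and 1.83. The heat values were 2.34, 2.20, 2.23, 2.32, 2.41 and 1.81, and the cold values 2.79, 2.00, 2.24, 2.42, 2.71 and 2.46. Salt gave 2.93, 2.54, 2.24, 2.15, 2.93 and 2.56, and drought 2.29, 2.12, 2.05, 2.07, 2.32 and 2.00. The last of them had the lowest value in control, heat and drought, the second in cold and the fourth in salt. The gene also held 3 stable peaks of 1 to 4 DNase-seq lists and 0 of all 5, although each DNase-seq list had a peak somewhere in it.

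The genes with 4 sites were ECA3, a calcium and manganese pump, RLM3, a TIR-domain immunity gene, NRPC2, a subunit of RNA polymerase III, SNL1, a SIN3-like corepressor, and MS1, a regulator of pollen development. Their control fold enrichments ran from 1.82 in MS1 to 2.96 in ECA3. In ECA3 and NRPC2 all 4 sites were within the gene, and neither gene held a stable peak of all 5 DNase-seq lists. MAF5, a MADS box factor of the family of floral repressors, had 3 sites, of which the one 133 bp outside the gene was the strongest at 3.05.

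A site counted as lying at a gene end where its summit was at most 1000 bp beyond that end or at most 200 bp into the gene. By that measure 2082 of 27444 protein-coding genes (7.59%) had a FAIRE-only site at an end, and 10178 (37.1%) had a stable peak of all 5 DNase-seq lists. Without the heat DNase-seq list in the rule, 3585 genes would have had such a site. Across 28 gene lists made from gene symbols, the share with a FAIRE-only site ran from 0 to 30%. It was above the share of all genes in 16 lists and at or below it in 12. Neighbouring genes can share a site, and the lists are small, so the counts are given beside the share over all genes without a test.

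**Figure D5:**
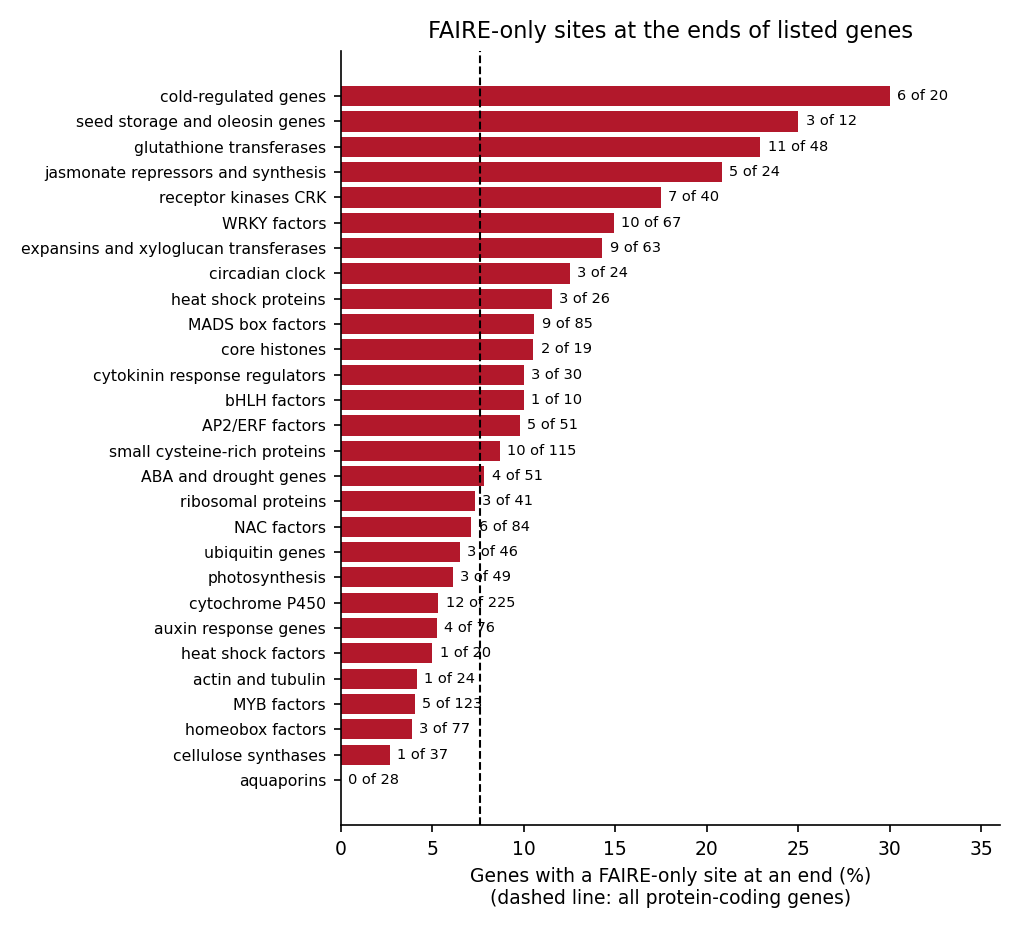
Genes with a FAIRE-only site at an end (%, horizontal axis) for 28 gene lists (vertical axis), with counts beside the bars and a dashed line at the share over all protein-coding genes, 7.59%. Cold-regulated genes have the longest bar, 6 of 20, and aquaporins have none, 0 of 28.

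Genes of cold acclimation had the highest share, 6 of 20 (30%): RCI2A, RCI2B, COR413-PM2, DREB1A, KIN1 and KIN2. RCI2A and RCI2B, neighbouring genes for small membrane proteins, shared 1 site of 190 bp, 17 bp outside RCI2B (3:1757347-1757536). Its fold enrichment was 3.50 in control, 3.20 in heat, 2.47 in cold, 2.70 in salt and 2.07 in drought, with a DNase-seq peak 47 bp away. DREB1A, which encodes a master transcription factor of the cold response, had a site 184 bp inside an end (4:13019119-13019376) at 3.04, 3.12, 2.52, 2.53 and 2.91 in the same order. The RCI2A and RCI2B site ranked from 39.2% in drought to 95.4% in control, and the DREB1A site from 50.7% in cold to 90.5% in heat. COR413-PM2, a cold-regulated membrane protein, had one 3 bp inside an end at 3.18, 3.12, 3.80, 3.25 and 2.87, and ranked at 93.4% in cold. Stable peaks of all 5 DNase-seq lists were at an end of 11 of the 20 genes (55.0%), against 37.1% over all genes.

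Glutathione transferases, enzymes of detoxification, had a site at 11 of 48 genes (22.9%), but at 8 different sites, since some members share 1. GSTL1 and GSTL3, for instance, shared 1 site (5:632655-632832) at 3.15, 3.17, 2.77, 2.57 and 2.25 in control, heat, cold, salt and drought. Cysteine-rich receptor kinases had 7 of 40 (17.5%) at 6 sites, and WRKY factors, transcription factors of defence, 10 of 67 (14.9%). WRKY40 and WRKY70 had sites at the same control value, 3.34, and at 3.67 and 3.32 in heat, 3.00 and 3.30 in cold, 3.41 and 2.60 in salt, and 2.97 and 2.65 in drought. Both sites lay over 400 bp from a DNase-seq peak, at 429 and 541 bp.

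Jasmonate genes had 5 of 24 (20.8%), which were AOC2, an enzyme of jasmonate synthesis, and the repressors JAZ1, JAZ3, JAZ5 and JAZ6. The JAZ6 site, 128 bp outside the gene (1:27273720-27273939), had 3.01, 3.41, 3.39, 3.41 and 2.58 in control, heat, cold, salt and drought. AOC2 was at 3.21, 2.14, 3.12, 2.41 and 2.97. The AOC2 site ranked at 92.6% in the control list and 45.6% in the heat list, and the JAZ6 site at 75.2% or above in each list.

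Expansins and xyloglucan transferases, which loosen the cell wall, had 9 of 63 (14.3%), led by EXPB1 at 3.81, 3.44, 3.86, 3.64 and 3.21 (2:8940790-8941040), a site that ranked at 92.0% or above in each list. Clock genes had 3 of 24 (12.5%), PRR3, GI and PRR5. GI, which links the clock to flowering, had a site 1 bp outside the gene (1:8061667-8061836) at 2.69, 2.74, 2.54, 2.45 and 2.44. MADS box factors had 9 of 85 (10.6%), among them SEP3, a factor of floral organ identity, whose site at 3.50, 3.90, 3.89, 3.41 and 3.10 (1:8596492-8596617) was 1828 bp from a DNase-seq peak. Seed storage and oleosin genes had 3 of 12 (25%), CRA1, OLEO4 and OLEO3. With gene ends widened to 2000 bp beyond and 500 bp into the gene, all genes were at 16.4%, and clock genes (12.5%) and MADS box factors (15.3%) fell below that share.

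Genes of the heat and drought responses showed no common direction against the share of all genes. Heat shock proteins had 3 of 26 (11.5%) and heat shock factors 1 of 20 (5.0%). With narrower ends, 500 bp beyond and 100 bp into the gene, heat shock factors stayed at 5.0%, above the 3.90% of all genes. Genes of abscisic acid and drought had 4 of 51 (7.84%), near the 7.59% of all genes. They went below the share of all genes with the wider ends, at 15.7%, and with the narrower ends, at 1.96%. In the last group NCED3, a key enzyme of abscisic acid synthesis in drought, had a site 118 bp inside an end (3:4831334-4831497) at 2.99, 3.81, 3.30, 2.83 and 2.57. Its highest rank was 97.4%, in heat, and a DNase-seq peak lay 18 bp away. RD26, a NAC factor induced by drying, had a weaker site at 2.11, 2.27, 2.40, 2.88 and 2.38.

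Low shares were found for MYB factors, with 5 of 123 genes (4.07%), homeobox factors, with 3 of 77 (3.90%), cytochromes P450, with 12 of 225 (5.33%), and aquaporins, with 0 of 28. Photosynthesis genes had 3 of 49 (6.12%), PSB27, RCA and PSBO1, which is near the 7.59% of all genes. Of that list, 71.4% had a stable peak of all 5 DNase-seq lists at an end. With gene ends narrowed to 500 bp beyond and 100 bp into the gene, photosynthesis genes stayed at 6.12%, above the 3.90% of all genes. With the wider ends, MYB factors and photosynthesis genes were each at 16.3%, close to the 16.4% of all genes. The list of cellulose synthases also takes in cellulose synthase-like genes. It had 1 of 37 at an end, the cellulose synthase-like CSLA07, but 10 of 37 (27.0%) within the gene, against 9.94% over all genes. The median length of its genes was 4026 bp, and of all genes 3000 to 5000 bp long 17.3% held a FAIRE-only site.

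Among the top 10% of FAIRE-only sites outside genes, the nearest gene was a transcription factor of the lists at 15 of 273 (5.49%, 3.36 to 8.87%). It was one at 4.71% of such peaks of 1 to 4 DNase-seq lists and at 3.08% of those of all 5, and 1.88% of all protein-coding genes are such factors. The intervals of the FAIRE-only sites and of both other classes overlap. Over all ranks the share was 2.96% (2.32 to 3.77%) for FAIRE-only sites and 2.32% (2.00 to 2.69%) for peaks of 1 to 4 lists. For peaks of all 5 it was 1.45% (1.15 to 1.82%), and there the first and the last interval do not overlap. The intervals cover counting error only and are no test. The median spacer also differed, at 7586, 5517 and 10606 bp in the same order, and its bearing on the share was not tested.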

How the data were processed

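Chromatin libraries were sequenced from seedlings, and 10 peak lists, 1 per assay and condition, were used; 5 RNA samples were not used here. Titles marked D were read as DNase-seq, those marked F as FAIRE-seq. Per the submitters' processing notes, FastQC, Bowtie2, TopHat2, SAMtools and MACS2 and the build TAIR10 were used; no settings are stated. The lists give, as deposited by the authors, a fold enrichment (a ratio) per peak, −log10 p and q values, a score, and the distance of the summit from the peak start. The lists pool libraries, so p-values over samples could not be computed and no depth is known.

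No list held the same coordinates more than once. Overlaps, ranks, places and distances were computed with Python 3.11.15, numpy 2.4.6, pandas 2.3.3 and scipy 1.17.1, tested on simulated data and checked with bedtools 2.31.1. Coordinates are TAIR10, counted from 1. Genes came from a RefSeq table of TAIR10.1, whose coordinates are not printed. In 26 of 26 blocks of 5 Mb, control DNase-seq summits were more numerous 200 to 400 bp inside gene ends than 1 to 200 bp outside. The factor was 3.81 to 14.2, and the first 200 bp inside were not counted. On that ground the table was taken to be in register with the lists. The check pools both ends of a gene, which a shift would affect in opposite directions, so a small shift could go unseen. The table gives neither strand nor sequence, so gene starts, gene orientation and promoter motifs were not analysed here.

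Genes were placed in 28 lists by symbol, and false matches were taken out by symbol. The sites and lists were chosen with earlier results of these data known. Genes named are those at the 10 sites with the highest control fold enrichment, at the 10 sites with the highest lowest rank, the 10 genes with most sites, up to 4 genes per list by control fold enrichment, and the 3 sites on either side of the edge of the rule. The small RNA genes, and list members named beyond 4, were named after their values were seen, and so were the classes of rank.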

Additional observations from a re-analysis of the deposited data

How the results depend on the processing

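No paired analysis was possible because each group has 1 pooled list, and for the same reason no single library could be left out. The analyses of gene orientation and promoter sequence were not run. FAIRE-only sites were less often within genes than stable peaks of all 5 DNase-seq lists in 17 of 17 other settings of the rule or the position, with differences from -27.1 to -13.6 percentage points. They were more often in flanks in 19 of 19 settings, which include other flank lengths. In 16 of 16 settings of the rule their median width was smaller.

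The values themselves moved. With 50% of the peak covered in each stress list, the share within genes was 57.3%, the share in flanks 16.9% and the median width 164 bp. A minimum −log10 q of 5 throughout gave 52.2%, 20.7% and 183 bp, and that limit on the FAIRE-seq lists only gave 49.0%, 22.4% and 174 bp, at 3078 sites. With it on the DNase-seq lists only they were 61.1%, 14.9% and 175 bp. Windows of 100 bp either side of the summit gave a median width of 174 bp. Requiring no DNase-seq peak within 200 bp gave 56.5% within genes and 1278 genes with a site at an end. Without the 2 cold lists there were 8990 sites, 64.5% within genes, 13.6% in flanks, with a median width of 161 bp and 3433 genes. The cause was not tested. Flanks of 500 and 2000 bp held 10.6% and 21.7% of sites, by their construction. Narrower gene ends (500 bp beyond, 100 bp into the gene) gave 1070 genes and wider ones (2000 bp beyond, 500 bp into it) 4496.

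Leaving out 1 list at a time gave 5249 to 7887 sites, 57.5 to 63.4% within genes, 14.1 to 19.9% in flanks, median widths of 158 to 177 bp and 2125 to 3585 genes. The highest number of sites came without the cold FAIRE-seq list (7887), and the highest number of genes without the heat DNase-seq list (3585). Of the 16 gene lists above the background, 14 were also above it with the narrower window and 10 with all 3 windows.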
